A study of Mus musculus with 6 samples.

Results

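The amino acid transporters described here are the genes whose symbols fall in the solute carrier families Slc1, Slc3, Slc6, Slc7, Slc36, Slc38 and Slc43. The rule was by name only and used no measured value. It gave 63 genes of the 20571 symbols shared by all 6 count tables: 7 in Slc1, 2 in Slc3, 20 in Slc6, 16 in Slc7, 4 in Slc36, 11 in Slc38 and 3 in Slc43. One of the Slc7 symbols, Slc7a6os, names a neighbour of Slc7a6 that is not itself a transporter, so sums over a family use the other 62. RNA sequencing was done on liver progenitor-like cells (LPCs), proliferating epithelial cells grown out of adult mouse liver, in 3 groups of 2 libraries. Bec_LPCs were obtained by plating pieces of intrahepatic bile duct from wild-type animals in matrigel, passaging the outgrowth and sorting it by flow cytometry, and the series calls them Epcam+. NPC_LPCs came from the non-parenchymal fraction of the liver, which leaves hepatocytes out, of AlbCreERT/R26GFP mice, in which an inducible Cre under the albumin promoter can switch on a GFP reporter. Hep_LPCs came from hepatocytes of ROSA26tdTomato mice given AAV8-TBG-Cre, a virus that expresses Cre from a hepatocyte promoter and so switches on the tdTomato reporter. All the mice were C57BL/6 of 6 to 8 weeks, and the cells of every group were cultured in Transition and Expansion Medium (TEM), so no group stands for fresh liver tissue.

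Amino acid transporters set which amino acids a cell can take up, exchange or release, and they work largely as exchangers in series. A sodium-driven carrier such as Slc38a2 loads the cell with small neutral amino acids. An exchanger such as Slc7a5 gives these back in return for leucine and other large essential amino acids. Several Slc7 exchangers are light chains that reach the plasma membrane only when bound to a heavy chain, Slc3a2 (also called 4F2hc or CD98), while Slc3a1 is the heavy chain of kidney and gut. Many of these genes are known targets of ATF4, the transcription factor of the amino acid response, and lysosomal members report amino acid supply to the growth kinase mTORC1.

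Depth ran from 17575998 to 22985888 counted reads per library, with both Bec_LPCs libraries above the other 4. Paired values below are in order of replicate number. Whether replicates came from separate cultures or animals is not stated in the labels. A p-value here reflects the spread between these libraries alone, which may be technical. The Hep_LPCs libraries did differ in Ddx3y, a gene of the Y chromosome, with 1032 reads and 1 read. Across all shared genes the chi-square between replicate counts, per degree of freedom, was 5.52 for Bec_LPCs, 110.6 for NPC_LPCs and 92.5 for Hep_LPCs, so the Bec_LPCs libraries lay much closer together, yet further apart than counting noise alone. The Bec_LPCs tables were laid out differently from the other 4. In every comparison with Bec_LPCs the cell source, the matrigel plating and passaging, sort, mouse line and counting therefore change together and cannot be told apart. Against Hep_LPCs the virus changes with them as well. Between Hep_LPCs and NPC_LPCs, cell source, mouse line and virus cannot be told apart. Biliary markers were present in all 6 libraries (summed level of 5 markers 2182 to 9797 CPM). Spp1 was the largest part of that sum in every library (953 to 9410 CPM). Epcam had 1397 and 1533 reads in Bec_LPCs, 2 and 12 in NPC_LPCs and 6 and 31 in Hep_LPCs. The 6 hepatocyte markers summed to 29.2 to 265 CPM, nearly all of it Hnf4a (28.8 to 263 CPM). Alb had at most 41 reads in any library, and Cyp2e1 had 0 reads in every library. Markers of stellate cells and fibroblasts (7 genes) summed to 171 and 208 CPM in Bec_LPCs and to 3.38 to 16.4 CPM in the other 4 libraries, with Lrat at 0 in all 6. In Bec_LPCs the sum was mostly Acta2 (77.6 and 94.1 CPM), Col1a1 (63.7 and 76.9 CPM) and Col1a2 (22.7 and 29.0 CPM). Dcn did not follow, with 1 and 1 reads in Bec_LPCs, 26 and 6 in NPC_LPCs, and 7 and 1 in Hep_LPCs. Over 6 macrophage and leukocyte markers the sums were 55.2 to 247 CPM, with Clec4f at 0 throughout. They were mostly Cd14 (39.2 to 161 CPM) and Cd68 (8.66 to 83.9 CPM), with Ptprc at 0.772 CPM or less. Sums were 2.19 to 7.37 CPM over 4 endothelial markers. Over 3 mesothelial markers they were 210 to 830 CPM, nearly all of it Msln (209 to 826 CPM). The part of such cells in the differences below was not tested, and in bulk RNA fewer cells of a type and less RNA per cell cannot be told apart.

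Levels are CPM, reads of a gene scaled to a common depth, on library sizes adjusted by the TMM method. Levels of different genes are compared only as CPM per kilobase of exon (CPM per kb). Of the 63 genes, 15 had 0 reads in all 6 libraries and another 12 had at most 10 reads in any library. A count of 0 allows up to 3 reads, which was 0.127 to 0.178 CPM at these depths and covers counting error only. Those without a read included 8 of the 20 Slc6 members, the family of the neurotransmitter carriers, among them the noradrenaline carrier Slc6a2 and the serotonin carrier Slc6a4. At the other end 18 genes, Slc7a6os among them, had at least 10 CPM in every library. A filter on low counts left 31 genes for testing: 3 of Slc1, 2 of Slc3, 5 of Slc6, 9 of Slc7, 2 of Slc36, 8 of Slc38 and 2 of Slc43. No gene was at 3 reads or fewer in both libraries of one group and at 1 CPM or more in both libraries of another.

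**Figure D1:**
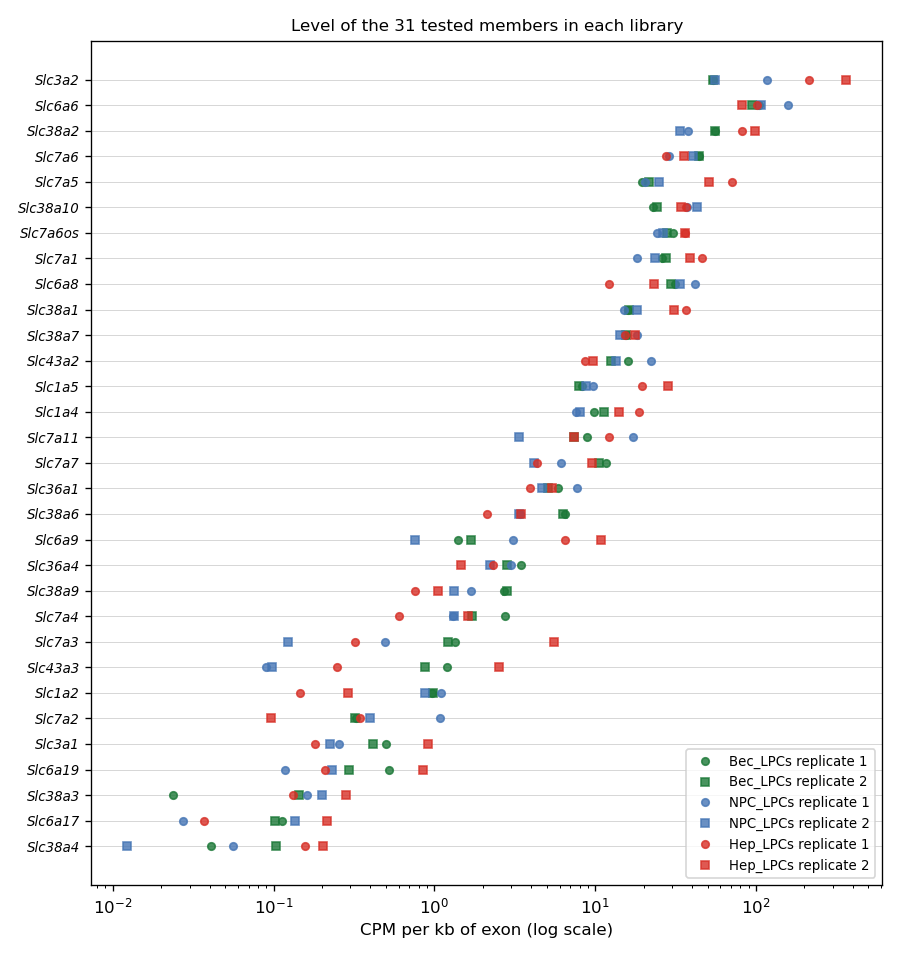
Level of each of the 31 tested genes in CPM per kb of exon on a log axis, with 1 symbol per library (colour for the group, shape for the replicate). Slc3a2 and Slc6a6 lie at the top, and the Hep_LPCs symbols of Slc3a2, at 215 and 363, stand to the right of the other 4.

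Slc6a6, the taurine carrier, had the highest level per kb of any of these genes in Bec_LPCs (99.3 ± 7.68, SD, n = 2) and in NPC_LPCs (133 ± 35.1, SD, n = 2). In Hep_LPCs the first place was held by Slc3a2 at 289 ± 105 (SD, n = 2), followed by Slc6a6 at 91.4 ± 14.0 and Slc38a2 at 89.9 ± 11.7. Slc6a6 and Slc38a2 overlapped there on this scale. In Bec_LPCs Slc38a2 (55.9 ± 0.0258, SD, n = 2) and Slc3a2 (54.2 ± 0.143, SD, n = 2) came next, and their libraries did not overlap. In NPC_LPCs Slc3a2 came next to Slc6a6 and varied from 55.3 to 118 CPM per kb between replicates. That range overlapped Slc6a6, whose lower value was 108, and lay above Slc38a10, which followed at 40.0 ± 4.25 (SD, n = 2). Length matters for this order. By the authors' deposited FPKM, which exist for NPC_LPCs and Hep_LPCs, Slc38a2 stood at 96.2 and 105 in Hep_LPCs beside 101 and 160.2 for Slc3a2, so those genes lay close together in Hep_LPCs replicate 1. Slc6a6 stood at 61.2 and 51.6 in the same deposited FPKM, below Slc38a2 in both Hep_LPCs libraries. The order in NPC_LPCs changed too, with Slc38a10 at 20.0 and 22.9 FPKM, below Slc38a2 at 42.0 and 40.1. Slc3a2 stood at 51.0 and 25.8 FPKM in NPC_LPCs and no longer overlapped Slc6a6, at 96.7 and 70.6.

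Summed over the 62 transporters, Hep_LPCs carried the most transporter RNA, at 724 and 879 CPM per kb, against 580.0 and 449 in NPC_LPCs and 474 and 458 in Bec_LPCs. Both Hep_LPCs libraries lay above the other 4. That excess was in large part the heavy chain Slc3a2. Slc3, nearly all of it this gene, made up 29.7% and 41.4% of the sum in Hep_LPCs. In the other 4 libraries its share was 11.5% to 20.3%. The families did not move as one. Slc1, the glutamate and neutral amino acid carriers, summed to 19.3 and 20.4 in Bec_LPCs, 18.4 and 17.7 in NPC_LPCs, and 38.3 and 42.6 in Hep_LPCs, in CPM per kb. Slc3, the heavy chains, summed to 54.6 and 54.8 in Bec_LPCs, 118 and 55.5 in NPC_LPCs, and 215 and 364 in Hep_LPCs, of which Slc3a2 made up 99.1% to 99.9%. Slc7 summed to 115 and 115 in Bec_LPCs, 93.7 and 98.5 in NPC_LPCs, and 162 and 150.3 in Hep_LPCs. Slc38, the sodium-coupled neutral amino acid carriers, summed to 119.7 and 121 in Bec_LPCs, 114 and 114 in NPC_LPCs, and 173 and 186 in Hep_LPCs. All 4 of these families were highest in the Hep_LPCs libraries. The opposite held for the other families: Slc6 summed to 138 and 126 in Bec_LPCs, 203 and 143 in NPC_LPCs, and 120.4 and 117 in Hep_LPCs, and its 2 lowest sums were those of Hep_LPCs. Slc36, the proton-coupled carriers, summed to 9.31 and 7.90 in Bec_LPCs, 10.7 and 6.88 in NPC_LPCs, and 6.22 and 6.83 in Hep_LPCs. Slc43, best known for Slc43a1 and Slc43a2, which release large neutral amino acids, summed to 17.3 and 13.4 in Bec_LPCs, 22.4 and 13.5 in NPC_LPCs, and 8.91 and 12.4 in Hep_LPCs.

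**Figure D2:**
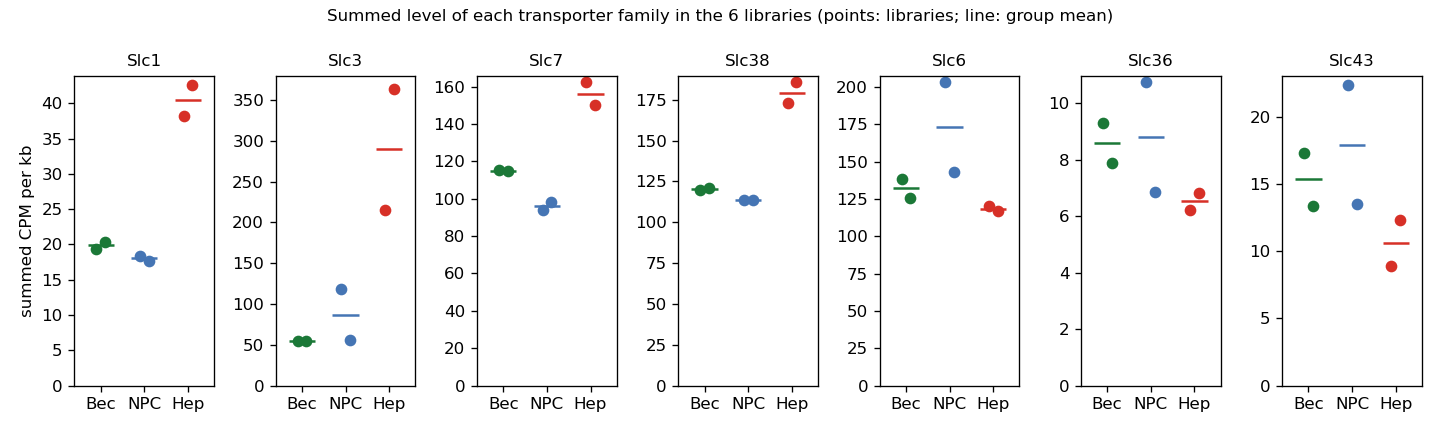
Summed level of each of the 7 families in CPM per kb, with 1 point per library, a line at the group mean and axes that start at 0 and differ between families. Slc1, Slc3, Slc7 and Slc38 are highest in both Hep_LPCs libraries, while Slc6, Slc36 and Slc43 are lowest there.

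Between Hep_LPCs and NPC_LPCs the libraries of all 7 families stood apart (4 higher and 3 lower in Hep_LPCs), and the same was true of Bec_LPCs and Hep_LPCs (3 higher and 4 lower in Bec_LPCs). With 2 libraries a group this carries no test. Single genes stood apart in 56.6% and 77.6% of cases in those comparisons. Each family sum rests on few genes. Without the highest gene of each family, 4 families still stood apart in Hep_LPCs against NPC_LPCs and 4 in Bec_LPCs against Hep_LPCs, and the Slc43 remainder, Slc43a1 and Slc43a3, was then higher in Hep_LPCs than in NPC_LPCs. By the deposited FPKM 6 families stood apart in Hep_LPCs against NPC_LPCs, all but Slc43. Bec_LPCs and NPC_LPCs stood apart in 5 families, with Slc1, Slc7 and Slc38 higher and Slc3 and Slc6 lower in Bec_LPCs, beside 70% of single genes. With library size alone as the scaling 3 families did, Slc3 and Slc6 no longer.

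Bec_LPCs against Hep_LPCs gave the most calls. Of the 31 tested genes, 11 (35.5%) passed edgeR's quasi-likelihood test at a Benjamini-Hochberg adjusted p under 0.05, beside 33.4% of all 12867 genes tested, so the share of calls was close to the background. The direction was uneven. Lower in Bec_LPCs were 8 genes (25.8%, against a background of 17.2% of genes called lower): Slc3a2, Slc7a5, Slc1a5, Slc38a1, Slc38a2, Slc7a1, Slc6a9 and Slc38a10. Higher were 3 (9.68%, against 16.1%): Slc1a2, Slc38a6 and Slc38a9. The median log2 fold change of the 31 was -0.27, beside 0.03 over all genes tested. Without Bec_LPCs replicate 1 none of the 31 was called, and without Bec_LPCs replicate 2 none either, with 8 at an unadjusted p under 0.05 each time and 3.69% of all genes called. Without Hep_LPCs replicate 1 the count was 8 and without Hep_LPCs replicate 2 it was 14. Leaving out a library changed the sign of none of the 11 fold changes. With library size alone as the scaling the median of all genes moved to 0.21 and the called genes were 60.9% higher in Bec_LPCs in place of 48.3%. Under it 8 of these genes were called, and Slc38a2, Slc7a1 and Slc38a10 were lost.

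**Figure D3:**
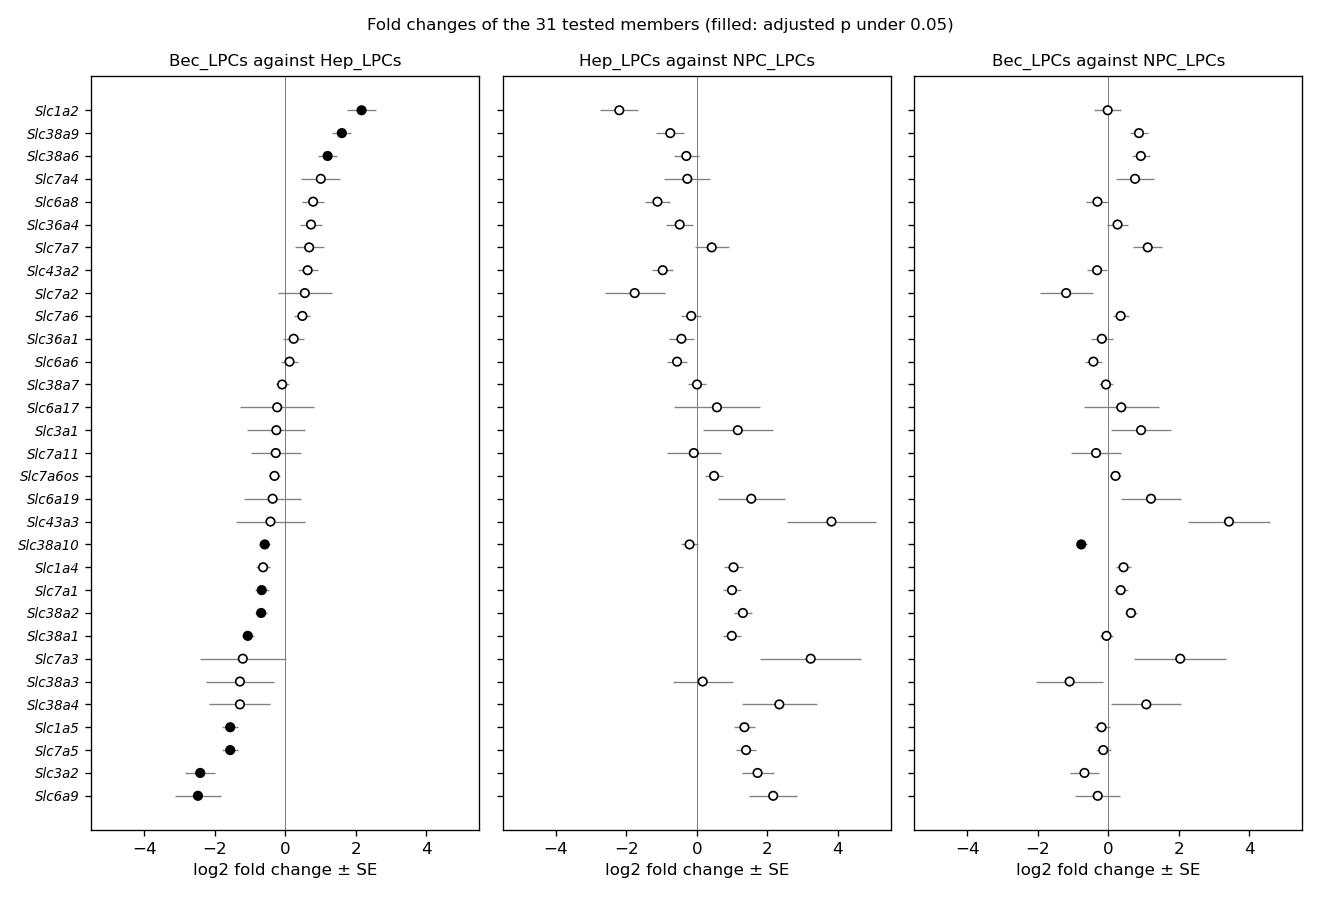
Log2 fold changes of the 31 tested genes with their standard errors in the 3 comparisons, with filled points where the adjusted p was under 0.05. In Bec_LPCs against Hep_LPCs 8 filled points lie left of 0 and 3 right of it, Bec_LPCs against NPC_LPCs has 1, and Hep_LPCs against NPC_LPCs has none.

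The heavy chain Slc3a2 and its light chain Slc7a5 were both lower in Bec_LPCs than in Hep_LPCs. Slc3a2 (chr19:8706882-8723369 in mm10) stood at 164 and 164 CPM in Bec_LPCs, 356 and 167 CPM in NPC_LPCs, and 649 and 1097 CPM in Hep_LPCs. Both Hep_LPCs libraries were above the other 4, and NPC_LPCs replicate 1 lay between them and the rest. Bec_LPCs differed from Hep_LPCs with a log2 fold change of -2.41 ± 0.43 (adjusted p = 0.0126), where the SE is the fold change divided by the root of the test's F statistic. Slc7a5 (chr8:121881150-121907694), the light chain that imports leucine and other large neutral amino acids, was at 69.2 and 76.0 CPM in Bec_LPCs, 72.0 and 88.0 CPM in NPC_LPCs, and 249 and 180.2 CPM in Hep_LPCs. Its Hep_LPCs libraries again stood above all the others, which lay within a narrow band, and the log2 fold change of Bec_LPCs against Hep_LPCs was -1.56 ± 0.22 (adjusted p = 0.007). Slc7a6, the light chain that exchanges cationic for neutral amino acids, was at 166 and 165 CPM in Bec_LPCs, 108 and 152 CPM in NPC_LPCs, and 103 and 134 CPM in Hep_LPCs. It went the other way, highest in both Bec_LPCs libraries, but the difference from Hep_LPCs was not called (log2 fold change 0.49 ± 0.23, adjusted p = 0.148). Slc7a7, a close relative of Slc7a6, was at 30.9 and 27.8 CPM in Bec_LPCs, 16.1 and 10.9 CPM in NPC_LPCs, and 11.4 and 25.3 CPM in Hep_LPCs and was not called either. It shares exons with Oxa1l, so its counts are uncertain.

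Slc7a11 (chr3:49892526-50443614), the cystine and glutamate exchanger that feeds glutathione synthesis, was at 87.1 and 73.0 CPM in Bec_LPCs, 170.4 and 32.9 CPM in NPC_LPCs, and 119.8 and 73.2 CPM in Hep_LPCs. The highest and the lowest of the 6 values were the 2 NPC_LPCs libraries, with 2951 and 647 reads, so every pair of groups overlapped. No comparison called it, with log2 fold changes of -0.27 ± 0.71 for Bec_LPCs against Hep_LPCs, -0.08 ± 0.76 for Hep_LPCs against NPC_LPCs and -0.34 ± 0.71 for Bec_LPCs against NPC_LPCs. The 6 partners of Slc3a2 are Slc7a5, Slc7a6, Slc7a7, Slc7a8, Slc7a10 and Slc7a11, of which Slc7a8 and Slc7a10 had at most 19 reads in any library. Per kb, Slc3a2 was 0.638 and 0.648 times the sum of these light chains in Bec_LPCs, 1.62 and 0.757 times in NPC_LPCs, and 1.87 and 3.49 times in Hep_LPCs. The heavy chain fell short of its partners in both Bec_LPCs libraries and exceeded them in both Hep_LPCs libraries, while the NPC_LPCs libraries fell on either side. By the deposited FPKM, with its own gene lengths, the ratios were lower, at 0.838 and 0.425 in NPC_LPCs and 1.09 and 1.89 in Hep_LPCs, in the same order. On that scale Slc3a2 fell short of its partners in both NPC_LPCs libraries, so the side on which a library fell depended on the gene lengths. The make-up of the light chains also set the Hep_LPCs libraries apart. Slc7a5 made up 61.6% and 49.2% of them in Hep_LPCs, 28.2% and 34.3% in NPC_LPCs and 23.2% and 25.8% in Bec_LPCs. Slc7a6 made up 52.3% and 52.6% in Bec_LPCs, 39.6% and 55.5% in NPC_LPCs and 23.9% and 34.3% in Hep_LPCs.

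**Figure D4:**
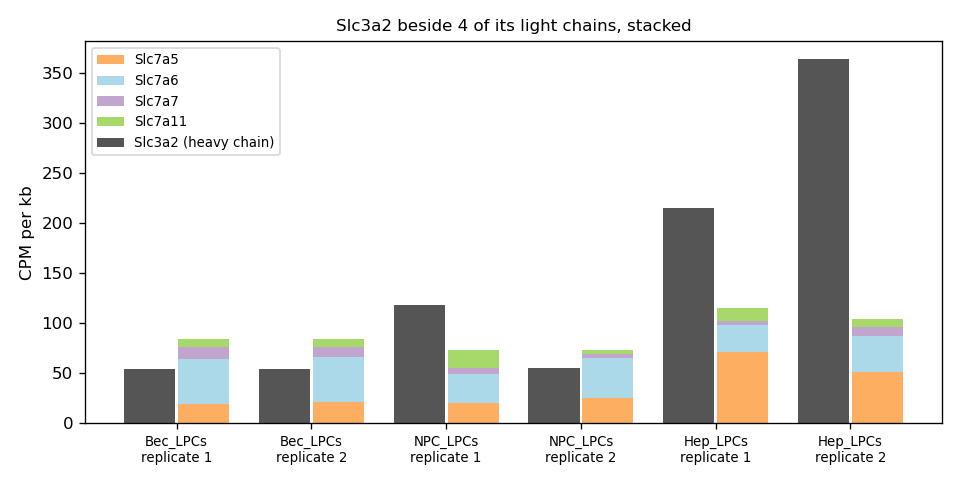
Level of Slc3a2 (dark bars) beside the stacked levels of Slc7a5, Slc7a6, Slc7a7 and Slc7a11 in each library, in CPM per kb from 0. The dark bar is the taller one in both Hep_LPCs libraries and in NPC_LPCs replicate 1, and the Slc7a5 segment is tallest in Hep_LPCs.

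Slc3a2, Slc38a2 and Slc7a11 are known ATF4 targets, and their upstream sequence is shown because the first and second were lower in Bec_LPCs while the third was not called. RefSeq windows on GRCm38.p6 were matched by symbol for 45 of the 63 genes (66 windows of 250 bases before the start). The last 120 bases of the first window listed for each are printed 5′ to 3′ on the gene's strand, the minus strand for all 3, from chr3:50443614-50443733 for Slc7a11, chr19:8713898-8714017 for Slc3a2 and chr15:96699729-96699848 for Slc38a2. The stretch shown for Slc3a2 precedes a RefSeq start that lies inside the longer gene of the counting annotation. Capitals mark matches on either strand to TGATGNAA, the core of the element bound by ATF4 with a CEBP partner, or to TGACNNNGC, the antioxidant response element bound by NRF2.
Slc7a11: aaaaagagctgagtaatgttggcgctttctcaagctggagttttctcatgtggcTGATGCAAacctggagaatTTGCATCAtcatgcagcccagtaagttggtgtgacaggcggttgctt
Slc3a2: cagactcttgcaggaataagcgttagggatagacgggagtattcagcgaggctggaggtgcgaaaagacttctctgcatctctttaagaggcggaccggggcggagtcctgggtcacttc
Slc38a2: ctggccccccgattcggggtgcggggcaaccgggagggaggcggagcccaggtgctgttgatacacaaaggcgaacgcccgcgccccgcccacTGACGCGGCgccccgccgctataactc
The Slc7a11 stretch holds a facing pair of TGATGNAA matches, the Slc38a2 stretch holds 1 match to TGACNNNGC, and the Slc3a2 stretch holds neither motif. Over the 66 windows, 3 (4.55%) held TGATGNAA and 9 (13.6%) held TGACNNNGC, beside 3.45% and 10.2% of all 32851 windows of the same length. The members with TGATGNAA were Slc7a11 and Slc7a7. A match is a string of letters, and the lack of one says only that those letters are not in the window.

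Carriers of the Slc1 and Slc38 families made up 4 of the 8 lower genes. Slc1a5 (chr7:16781340-16798274), the sodium-dependent exchanger of glutamine, alanine and serine, was at 23.0 and 21.8 CPM in Bec_LPCs, 26.7 and 24.3 CPM in NPC_LPCs, and 54.0 and 78.3 CPM in Hep_LPCs. The Bec_LPCs and NPC_LPCs libraries lay close together and both Hep_LPCs libraries stood above them, with a log2 fold change of -1.56 ± 0.23 (adjusted p = 0.00793) for Bec_LPCs against Hep_LPCs. Slc1a4, its relative for serine, alanine and cysteine, was at 38.4 and 44.5 CPM in Bec_LPCs, 29.7 and 31.6 CPM in NPC_LPCs, and 73.0 and 55.1 CPM in Hep_LPCs. Its libraries did not overlap between any pair of groups, but the fold change missed the threshold, at a log2 value of -0.63 ± 0.20 (adjusted p = 0.0598). Slc38a1 (chr15:96571418-96642913), a glutamine importer, was at 173 and 173 CPM in Bec_LPCs, 163 and 195 CPM in NPC_LPCs, and 392 and 333 CPM in Hep_LPCs, and was lower in Bec_LPCs than in Hep_LPCs with a log2 fold change of -1.06 ± 0.18 (adjusted p = 0.0104). Slc38a2 (chr15:96687392-96699730), the importer best known for its induction by amino acid shortage, was at 261 and 260.5 CPM in Bec_LPCs, 177 and 156 CPM in NPC_LPCs, and 380.1 and 457 CPM in Hep_LPCs. The 3 groups were separate, with Hep_LPCs highest and NPC_LPCs lowest, and the log2 fold change of Bec_LPCs against Hep_LPCs was -0.68 ± 0.17 (adjusted p = 0.0299). Slc38a10 (chr11:120103960-120151346), a broadly expressed member of that family, was at 124 and 131 CPM in Bec_LPCs, 201 and 233 CPM in NPC_LPCs, and 198 and 185 CPM in Hep_LPCs. Here the Bec_LPCs libraries were the 2 lowest, with a log2 fold change of -0.58 ± 0.16 (adjusted p = 0.0374), and the call was lost without Hep_LPCs replicate 1.

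Slc7a1 and Slc6a9, carriers of cationic amino acids and of glycine, were lower as well. Slc7a1 (chr5:148327410-148399904), the main arginine and lysine importer of dividing cells, was at 186 and 197 CPM in Bec_LPCs, 130.0 and 169.5 CPM in NPC_LPCs, and 331 and 278 CPM in Hep_LPCs. All 3 groups were separate, and Bec_LPCs were lower than Hep_LPCs with a log2 fold change of -0.67 ± 0.20 (adjusted p = 0.046). The call did not hold without Hep_LPCs replicate 1 or without the filter on low counts. Its relatives were sparse: Slc7a2, the arginine carrier of mature hepatocytes, reached at most 9.41 CPM, and Slc7a3 was at 3.88 and 3.52 CPM in Bec_LPCs, 1.44 and 0.356 CPM in NPC_LPCs, and 0.936 and 16.1 CPM in Hep_LPCs. The Hep_LPCs values of Slc7a3 were the second lowest and the highest of the 6. Slc6a9 (chr4:117834506-117875198), the glycine carrier GLYT1, was at 5.19 and 6.22 CPM in Bec_LPCs, 11.3 and 2.80 CPM in NPC_LPCs, and 23.9 and 39.7 CPM in Hep_LPCs. Both Hep_LPCs libraries were above the other 4, and the log2 fold change of Bec_LPCs against Hep_LPCs was -2.48 ± 0.66 (adjusted p = 0.0358). That gene shares 38.8% of its exonic length with Ccdc24, so its counts are uncertain, and leaving out any Bec_LPCs or Hep_LPCs library ended the call.

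The genes higher in Bec_LPCs were Slc38a9, Slc1a2 and Slc38a6. Slc38a9 (chr13:112660751-112738749), the lysosomal arginine sensor upstream of mTORC1, was at 24.1 and 25.2 CPM in Bec_LPCs, 15.1 and 11.7 CPM in NPC_LPCs, and 6.79 and 9.37 CPM in Hep_LPCs. The groups did not overlap, with Bec_LPCs highest and Hep_LPCs lowest, and Bec_LPCs exceeded Hep_LPCs with a log2 fold change of 1.61 ± 0.27 (adjusted p = 0.0111). Slc1a2 (chr2:102658659-102790784), the glutamate carrier GLT-1, was at 11.7 and 11.9 CPM in Bec_LPCs, 13.2 and 10.6 CPM in NPC_LPCs, and 1.76 and 3.50 CPM in Hep_LPCs. Here Bec_LPCs and NPC_LPCs overlapped and Hep_LPCs stood below both, with a log2 fold change of 2.16 ± 0.41 (adjusted p = 0.0143). Slc38a6 (chr12:73286779-73354049) was at 43.8 and 42.7 CPM in Bec_LPCs, 22.9 and 22.6 CPM in NPC_LPCs, and 14.4 and 23.2 CPM in Hep_LPCs, highest in Bec_LPCs with a log2 fold change of 1.20 ± 0.26 (adjusted p = 0.0213) against Hep_LPCs. A stretch of its transcripts is near-identical to transcripts of Noct and of olfactory receptor genes (at least 95% identity over 200 bases), so its counts are uncertain.

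The remaining carriers gave no call between Bec_LPCs and Hep_LPCs. Slc6a6 was at 648 and 581 CPM in Bec_LPCs, 976 and 669 CPM in NPC_LPCs, and 627 and 504 CPM in Hep_LPCs, with a log2 fold change of 0.12 ± 0.24 (adjusted p = 0.718) for Bec_LPCs against Hep_LPCs. Slc6a8, the creatine carrier on the X chromosome, was at 124 and 118 CPM in Bec_LPCs, 167 and 133 CPM in NPC_LPCs, and 48.6 and 91.4 CPM in Hep_LPCs. Both Hep_LPCs libraries were the lowest of the 6, without a call (log2 fold change 0.79 ± 0.32, adjusted p = 0.101). Slc43a2, which lets branched-chain and aromatic amino acids out of the cell, was at 116 and 89.8 CPM in Bec_LPCs, 159 and 96.2 CPM in NPC_LPCs, and 62.3 and 70.1 CPM in Hep_LPCs, again lowest in Hep_LPCs and not called (log2 fold change 0.63 ± 0.28, adjusted p = 0.129). The lysosomal carriers Slc36a1 and Slc38a7 overlapped in every pair of groups, between 21.2 and 41.9 CPM for Slc36a1 and between 47.8 and 60.2 CPM for Slc38a7. Slc38a3 and Slc38a4, the glutamine and neutral amino acid carriers of mature hepatocytes, did not exceed 1.01 CPM in any library, the Hep_LPCs libraries included.

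Hep_LPCs against NPC_LPCs is the comparison named in the growth protocol. None of the 31 genes was called, beside 0.781% of the 12159 genes tested. At an unadjusted p under 0.05 there were 12, of which 9 were higher and 3 lower in Hep_LPCs. DESeq2's Wald test called 11 of the 31 (9 higher and 2 lower, with 12.3% of all genes called) and limma-voom called 0. With all 6 libraries in the fit 7 were called (6 higher and 1 lower), beside 9.9% of all genes, and without NPC_LPCs replicate 1 the only call was Slc6a9, beside 2.83%. The median log2 fold change was 0.43, beside 0.00 over all genes. The libraries of 18 genes (58.1%) did not overlap, beside 56.6% of all genes. Among the neutral amino acid carriers, Slc38a2 gave 1.31 ± 0.25 (adjusted p = 0.077), Slc7a5 1.40 ± 0.28 (adjusted p = 0.0808), Slc1a5 1.35 ± 0.29 (adjusted p = 0.0877), Slc1a4 1.04 ± 0.27 (adjusted p = 0.113) and Slc38a1 0.99 ± 0.25 (adjusted p = 0.11). Slc3a2 gave 1.73 ± 0.45 (adjusted p = 0.116) and Slc7a1 1.00 ± 0.27 (adjusted p = 0.119). On the other side Slc1a2 gave -2.20 ± 0.54 (adjusted p = 0.106), Slc6a8 -1.11 ± 0.36 (adjusted p = 0.159) and Slc43a2 -0.97 ± 0.30 (adjusted p = 0.156). Hep_LPCs also enter the comparison with Bec_LPCs, so the values of the 2 comparisons share those libraries and are not independent.

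Both Hep_LPCs libraries lay above the other 4 for 10 of the 31 genes (32.3%), beside 20.8% of all genes, and below them for 4 (12.9%), beside 21.2%. The 10 were Slc1a4, Slc1a5, Slc38a1, Slc38a2, Slc38a4, Slc3a2, Slc6a9, Slc7a1, Slc7a5 and Slc7a6os. The 4 were Slc1a2, Slc38a9, Slc43a2 and Slc6a8. Bec_LPCs stood above the rest for 5 genes (16.1%, beside 26% of all) and below for 3 (9.68%, beside 22.4%). These counts describe the libraries and carry no test.

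Bec_LPCs and NPC_LPCs differed in few of these genes by the test. Of the 31, 1 (3.23%) was called, beside 11.3% of all genes and 6.44% called lower: Slc38a10 was lower in Bec_LPCs with a log2 fold change of -0.76 ± 0.16 (adjusted p = 0.0388). The call was lost with either Bec_LPCs library left out and without NPC_LPCs replicate 2. With either Hep_LPCs library left out, which enter this fit only through the spread, 4 genes were called, Slc38a10, Slc38a2, Slc38a6 and Slc43a3. With only the 4 libraries compared there were 6, and DESeq2's Wald test gave 5. The 11.3% is from the main fit, so these other counts have no share over all genes beside them. Slc38a2 was higher in Bec_LPCs without overlap but missed the threshold (log2 fold change 0.65 ± 0.17, adjusted p = 0.065). With library size alone as the scaling, which moved the median of all genes from 0.01 to 0.17 and the called genes from 43.1% to 61.3% higher in Bec_LPCs, Slc38a2 was the one gene called and Slc38a10 was not. Slc7a5 and Slc38a1 gave values near 0, at -0.14 ± 0.22 and -0.05 ± 0.17. The median of the 31 genes was 0.21, beside 0.01 over all genes. Slc43a3, a carrier of purine bases rather than amino acids, had the largest fold change at 3.43 ± 1.16 (adjusted p = 0.109), but it stood at 3.08 and 2.27 CPM in Bec_LPCs and 0.231 and 0.254 CPM in NPC_LPCs.

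Genes that work with the transporters were taken from 6 lists. The amino acid response list held 20 genes that ATF4 and its partners are known to switch on, all of them tested. In Bec_LPCs against Hep_LPCs 12 were lower and none higher (60%, beside 17.2% of all genes called lower), and the median log2 fold change was -1.17. This list was chosen with earlier results of these data known, so its direction is no independent evidence. Atf4 itself was at 213 and 208 CPM in Bec_LPCs, 396 and 241 CPM in NPC_LPCs, and 672 and 809.7 CPM in Hep_LPCs, with a log2 fold change of -1.82 ± 0.27 (adjusted p = 0.00812). Shmt2, a mitochondrial enzyme of serine and glycine metabolism, was at 90.7 and 97.4 CPM in Bec_LPCs, 145 and 189.8 CPM in NPC_LPCs, and 429 and 532 CPM in Hep_LPCs, with a log2 fold change of -2.35 ± 0.21 (adjusted p = 0.00249). Phgdh, the first enzyme of serine synthesis, gave -1.33 ± 0.18 (adjusted p = 0.00618), and Mthfd2, a mitochondrial folate enzyme, gave -1.16 ± 0.15 (adjusted p = 0.00601). The other 8 called were Asns, Atf5, Cebpb, Chac1, Ddit3, Psat1, Psph and Trib3. With either Bec_LPCs library left out 1 gene of the list was called, and without Hep_LPCs replicate 1 or 2 it was 8 or 7 lower, with 2 higher in the last case. In Hep_LPCs against NPC_LPCs none was called by edgeR, with 12 at an unadjusted p under 0.05 and a median of 1.35. Other edgeR fits did call genes of the list, all higher in Hep_LPCs: 8 without the low-count filter, 10 with all 6 libraries and 2 without NPC_LPCs replicate 1. Asns, the asparagine synthetase, was at 132 and 134 CPM in Bec_LPCs, 127 and 88.4 CPM in NPC_LPCs, and 318 and 378 CPM in Hep_LPCs, its 2 Hep_LPCs libraries above the other 4, with a log2 fold change of 1.67 ± 0.28 (adjusted p = 0.0693) in that comparison. None was called in Bec_LPCs against NPC_LPCs by the main fit, with 6 at an unadjusted p under 0.05 and a median of 0.08. With only the 4 libraries compared edgeR called Cebpb and Shmt2, both lower in Bec_LPCs, and with library size alone it called 2 genes higher. DESeq2's Wald test called 11 higher in Hep_LPCs against NPC_LPCs, and 2 higher and 2 lower in Bec_LPCs against NPC_LPCs, while limma-voom called none in the former and Shmt2 alone, lower, in the latter.

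In the list of amino acid sensing genes that signal to mTORC1, more genes were called higher than lower in Bec_LPCs against Hep_LPCs. The list holds restraints of mTORC1 as well as the kinase, so these counts give no direction of signalling. It too was chosen with earlier results of these data known. Of 22 tested, 7 were higher in Bec_LPCs than in Hep_LPCs, beside a background of 16.1% (Castor2, Flcn, Mtor, Rragc, Rragd, Sesn1 and Sesn3), and 1, Lamtor2, was lower. The median was 0.45, and with either Bec_LPCs library left out 1 gene was called. Without Hep_LPCs replicate 1, 3 were higher and 2 lower. Sesn3, a sestrin that restrains mTORC1, was at 304 and 309 CPM in Bec_LPCs, 79.3 and 39.6 CPM in NPC_LPCs, and 32.1 and 20.6 CPM in Hep_LPCs. It was higher in Bec_LPCs than in Hep_LPCs with a log2 fold change of 3.54 ± 0.41 (adjusted p = 0.00419) and than in NPC_LPCs with a log2 fold change of 2.37 ± 0.39 (adjusted p = 0.0228), the one call of the list in that comparison. Mtor, the kinase itself, gave 0.76 ± 0.16 (adjusted p = 0.0189) against Hep_LPCs.

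Among 16 tested amino acid enzymes, 5 were lower in Bec_LPCs than in Hep_LPCs (Bcat1, Cth, Gls2, Got1 and Got2), beside 17.2% of all genes, and Bcat2 and Bckdhb were among those higher. Gls2, which releases ammonia from glutamine, was at 1.94 and 1.54 CPM in Bec_LPCs, 3.29 and 3.05 CPM in NPC_LPCs, and 32.1 and 13.3 CPM in Hep_LPCs, with a log2 fold change of -3.70 ± 0.51 (adjusted p = 0.0066). Bcat1, the cytosolic transaminase of branched-chain amino acids, gave -3.23 ± 0.54 (adjusted p = 0.0109). Its mitochondrial relative Bcat2 had 252 and 258 reads in Bec_LPCs and 0, 0, 0 and 1 in the other 4 libraries, so no fold is given, and counting and cell source cannot be told apart for it. In Bec_LPCs against NPC_LPCs Bcat2 was also called higher. With either Bec_LPCs library left out no gene of the list was called lower against Hep_LPCs.

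Of 14 tested amino acid and peptide carriers from other families, 2 were higher in Bec_LPCs than in Hep_LPCs (Slc15a3 and Slc15a4) and 4 were lower (Slc16a10, Slc25a12, Slc25a13 and Slc25a44). That is 42.9% called, beside 33.4% of all genes, of which 16.1% were higher and 17.2% lower. The balance depended on the scaling, since library size alone gave 4 higher and 1 lower. The replicate block, or leaving out either Hep_LPCs library, gave 2 higher and 2 lower. Slc16a10, which carries aromatic amino acids, was at 5.06 and 3.64 CPM in Bec_LPCs, 10.8 and 6.81 CPM in NPC_LPCs, and 29.4 and 15.4 CPM in Hep_LPCs, with a log2 fold change of -2.36 ± 0.45 (adjusted p = 0.0144). Slc15a3 had 54 and 63 reads in Bec_LPCs and 0 in the other 4 libraries and shares exons with Tmem132a, so its call is uncertain. Slc15a3 and Slc25a15 were called higher against NPC_LPCs. That is 14.3% of the 14 tested, near the 11.3% of all genes called in either direction in that comparison. With the replicate block no gene of this list was called there. Among genes without a counting doubt, 12 of the list were tested and none was called. Among 5 tested partners of the carriers, Cd44, a surface glycoprotein that binds Slc7a11, was at 1484 and 1464 CPM in Bec_LPCs, 1777 and 1716 CPM in NPC_LPCs, and 469.5 and 581 CPM in Hep_LPCs. It was higher in Bec_LPCs than in Hep_LPCs with a log2 fold change of 1.49 ± 0.18 (adjusted p = 0.00467), and Nedd4l, a ubiquitin ligase that removes carriers from the membrane, was lower with a log2 fold change of -0.66 ± 0.19 (adjusted p = 0.0433). The Nedd4l call was lost with library size alone, without the low-count filter, with the replicate block and without NPC_LPCs replicate 2 or Hep_LPCs replicate 1. Of the 6 glutathione genes 1 (16.7%) was called, near the share of all genes called lower: Gpx4 was lower in Bec_LPCs with a log2 fold change of -0.83 ± 0.24 (adjusted p = 0.0432). Its call was lost with library size alone, with the replicate block, with only the 4 libraries compared and without Hep_LPCs replicate 2 or either NPC_LPCs library. Gclc, which catalyses the first step of glutathione synthesis, was at 948 and 665 CPM in Bec_LPCs, 2643 and 936 CPM in NPC_LPCs, and 1615 and 1095 CPM in Hep_LPCs, and like Slc7a11 its highest value was in NPC_LPCs replicate 1. With either Bec_LPCs library left out no gene was called against Hep_LPCs among the other carriers, the partners or the glutathione genes. In Hep_LPCs against NPC_LPCs, with the 4 libraries and the low-count filter, edgeR and limma-voom called no gene of the 6 lists. Without the filter (2.93% of all genes called) edgeR also called 3 enzymes, higher in Hep_LPCs, and 1 partner, lower. With all 6 libraries (9.9% of all genes called) it called 3 enzymes higher, 2 sensing genes lower and 2 partners, 1 in each direction. Without NPC_LPCs replicate 1 it called 1 enzyme and 1 partner, both higher. On log2(FPKM + 1), limma called 5 genes of the amino acid response and 2 enzymes higher and 1 partner lower, beside 2.04% of all genes. At an unadjusted p under 0.05 there were 12 of the amino acid response, 5 of the sensing list, 4 enzymes, 3 partners, 2 other carriers and 0 glutathione genes. DESeq2's Wald test called 11 of the amino acid response, all higher in Hep_LPCs, 3 of the sensing list, all lower, 3 enzymes, all higher, and 2 partners, 1 in each direction.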

How the data were processed

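The 6 libraries were made from polyadenylated RNA with a stranded paired-end kit, as the labels' protocols state. The submitters' processing notes list Trimmomatic, HISAT2, Cufflinks, HTSeq, DESeq and the mm10 build, while versions, roles and strand settings were not given in the sources used here. Each library has 1 table deposited by the authors, with whole-number read counts per gene symbol and, for NPC_LPCs and Hep_LPCs only, FPKM as well, per the file headers. FPKM (as deposited by the authors, scaled for depth and length) served for alternatives only, with a pseudocount of 1.

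Older symbols were updated with RefSeq synonyms, which raised the shared symbols from 19763 to 20571. Blank rows of the Bec_LPCs tables (0.000191% and 0.000181% of counts) were left out. Of 65 symbols that fit the rule in any table, Slc6a19os is not in the Bec_LPCs tables and Slc6a21 is under an older symbol in the others, with at most 3 reads. Exonic lengths and coordinates are from GENCODE M21, 1-based. Samples were grouped by title. edgeR 4.0.16 (TMM, filterByExpr, robust glmQLFit, two-sided glmQLFTest, Benjamini-Hochberg over all genes tested, R 4.3.3, limma 3.58.1) was fitted to the 4 libraries of Hep_LPCs and NPC_LPCs and, for Bec_LPCs, to all 6, after a check on simulated counts. The replicate number was not a term. A gene counts as uncertain where over 25% of its exons overlap another protein-coding gene or 95% identity over 200 bases ties it to one (bedtools 2.31.1, minimap2 2.31-r1302), which holds for Slc38a6, Slc3a1, Slc6a9 and Slc7a7 among the tested.

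Values per library are given for genes called in any comparison, the highest gene of each family and Slc3a2, Slc7a5, Slc7a11, Slc1a5, Slc38a2, Slc7a1 and Slc1a4, with up to 4 genes of each list by smallest adjusted p, apart from a few items that are not reported here. Other transporters were named for their roles after values were seen. The genes and lists were chosen with earlier results of these data known. Tests were repeated with limma-voom, DESeq2's Wald test and size factors (DESeq2 1.42.0), scaling by library size alone, all genes unfiltered, the replicate block, each library left out, other sets of libraries, symbols as deposited, genes without a counting doubt, and FPKM, whose use for sums and ratios was chosen after the data were seen.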

Additional observations from a re-analysis of the deposited data

How the results depend on the processing

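The 11 calls in Bec_LPCs against Hep_LPCs numbered 8 to 12 under the settings that keep all 6 libraries or the 4 compared, and 0 to 14 with a library left out. The low end came from leaving out a Bec_LPCs library, where the lone sample is assumed to vary like the other groups. Among genes without a counting doubt 9 were called. The single call in Bec_LPCs against NPC_LPCs became 5 with DESeq2's Wald test and 6 with only the 4 libraries compared, and ran from 0 to 4 with a library left out. The count of 0 in Hep_LPCs against NPC_LPCs became 2 without the low-count filter, 11 with DESeq2's Wald test and 7 with all 6 libraries in the fit, and ran from 0 to 1 with a library left out. For families that stood apart, removing the highest gene of each gave 4 in place of 7 in Hep_LPCs against NPC_LPCs and 4 in place of 7 in Bec_LPCs against Hep_LPCs, and library size alone gave 3 in place of 5 in Bec_LPCs against NPC_LPCs. The cause was not tested. The counts of calls in this paragraph stand without the share of all genes called under each setting. No setting reversed a named gene that was called. 

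Labels do not pair the samples. Same-numbered libraries did not deviate together (r of 0.0866, -0.0395 and -0.00851 for the 3 pairs of groups). Such values cannot show that they shared no batch, since large differences between replicates can hide one. With the replicate number as a block, 0 genes were called in Hep_LPCs against NPC_LPCs, 0 in Bec_LPCs against NPC_LPCs and 8 in Bec_LPCs against Hep_LPCs. With 2 libraries a group an exact permutation test cannot reach 0.05, and genes of a few reads carry no more than their counting error allows.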

Other observations

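Some transporters varied far more within a group than others. The median ratio between replicates was 1.10 over 29 of the 63 genes in Bec_LPCs, 1.26 over 26 in NPC_LPCs and 1.42 over 28 in Hep_LPCs, Slc7a6os included in each. It exceeded 2 for 0, 4 and 6 of them. In Hep_LPCs replicate 2 was the higher one for Slc7a3, a cationic amino acid carrier, by 17.2 times, for Slc43a3 by 10.1 times and for Slc6a19, the neutral amino acid carrier of gut and kidney, by 4.05 times, while replicate 1 was the higher one for Slc7a2 by 3.59 times. In NPC_LPCs replicate 1 was the higher one for Slc7a11 by 5.18 times, for Slc6a9 by 4.03 times, for Slc7a2 by 2.72 times and for Slc3a2 by 2.13 times. The Hep_LPCs libraries also differed in Ddx3y, a gene of the Y chromosome, with 1032 reads in replicate 1 and 1 read in replicate 2, beside 1431 to 2370 reads in the other 4 libraries. Its relation to the transporter values was not tested.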
